A study of Arabidopsis thaliana with 4 samples.

Results

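Immune receptors and receptor kinases were followed in leaf discs of Arabidopsis thaliana through 5 genes, out of 13350 genes that the annotation gave a probe set of their own on the Affymetrix ATH1 array. Each was read by 1 of the 22746 non-control probe sets. The genes were EFR (AT5G20480), AT1G51850, BIK1 (AT2G39660), AT1G51620 and AT1G66090. They were picked by name, with their response to dithiothreitol (DTT) known. Without the replicate number in the fit, a test of DTT against control called 0 of the 5 and 0% of all probe sets tested. With it, AT1G51850, AT1G51620 and AT1G66090 were called, beside 0.923% of all probe sets tested, and EFR and BIK1 were not. Joined with one median per array or no filter, that fit called 0 of the 5. Since the 5 were picked with this response known, nothing is read from these calls. Their DTT values are given as a description. All 5 passed the filter on low signals, AT1G51850 only through its control arrays. No other probe set of the annotation carried any of them.

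Both groups held wild-type Col-0 discs cut from full-grown source leaves of non-flowering rosette plants at the end of the night. The plants grew in 14 h days at 20 °C and 10 h nights at 16 °C. The DTT group was incubated for 1 h in the dark in 2 mM MES buffer of pH 6.5 with 5 mM DTT, a small thiol compound that reduces disulfide bonds. The control group had the same incubation without DTT. Each group had 2 arrays, called DTT 1 and 2 and control 1 and 2 after their titles. The series' design text calls them biological replicates. It does not say how many plants a sample pooled, or that equal numbers mark a shared plant or day. The comparison asked how a change in the redox state of the cells alters gene expression.

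Plants sense microbes at the cell surface with receptor kinases and receptor-like proteins, and inside the cell with nucleotide-binding receptors. A surface receptor that has bound its ligand joins a co-receptor kinase and passes the signal to receptor-like cytoplasmic kinases, which activate an oxidase and further kinases. EFR, a leucine-rich repeat receptor kinase, recognises a peptide of bacterial elongation factor Tu. BIK1 is a cytoplasmic kinase that acts directly below EFR and other surface receptors and phosphorylates the oxidase RBOHD. Accumulation of EFR is known to depend on glycoprotein quality control in the endoplasmic reticulum, where ERdj3B is one of the chaperone partners. AT1G51850 is a leucine-rich repeat kinase and AT1G51620 a kinase-like gene. AT1G66090 encodes a TIR-NBS protein, a kind of intracellular immune receptor that carries a Toll/interleukin-1 receptor domain and a nucleotide-binding site.

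Values below are MAS5 signals, a linear intensity per probe set in arbitrary units, or differences of their log2 values. The median signal lay between 25.4 and 29.6 on the DTT arrays and between 25.9 and 32.8 on the control arrays. Probe sets were tested when their mean log2 signal reached 4.08, a signal of 16.9, which 13648 did. The replicates stood apart from each other. Over 9 probe sets of the hybridization controls, added to every labelled sample in fixed amounts, the median ratio was 1.48 for DTT 1 over DTT 2 and 1.69 for control 1 over control 2. It was 0.964 for DTT over control in replicate 1 and 1.05 in replicate 2. Changes are therefore also given within each replicate number. Signals of different probe sets cannot be set against each other, and the number of arrays limits the precision of every value. Of 10 mesophyll markers 2 were measured. RCA, the activase of Rubisco, had 3809 and 2999 in DTT and 4077 and 2752 in control, and LHCB4.1, an antenna protein, lay between 4526 and 5586 on all arrays. The annotation, which named no gene for 8730 probe sets, gave no epidermis, phloem or xylem marker listed a probe set of its own. In bulk discs, fewer cells of a type and less RNA per cell cannot be told apart.

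EFR, the surface receptor, had signals of 85.2 and 50.5 in DTT, against 140.5 and 69.9 in control. Each DTT array lay below the control array of its own number, but DTT 1 lay above control 2, so the groups overlapped. The mean was 67.85 ± 24.5 in DTT and 105.2 ± 49.9 in control (SD, n = 2 each). EFR was 1.65-fold lower in DTT in replicate 1 and 1.38-fold lower in replicate 2, with a mean log2 change of -0.60 ± 0.18 (SD of the 2 replicates). The gene was thus lower in DTT in both replicates, as were 27% of all probe sets tested. With control 2 left out the log2 change was -1.10, and with DTT 1 left out it was -0.97. It shrank to -0.22 when DTT 2 was dropped and to -0.092 when control 1 was dropped. On the log2(signal + 64) scale it was -0.34.

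AT1G51850, the leucine-rich repeat kinase, had signals of 27.5 and 4.5 in DTT and 80.6 and 35.4 in control. Both DTT arrays lay below both control arrays, and the signal on DTT 2 was under the filter level. The mean log2 signal of the DTT arrays alone was under that level too, so the gene was kept by the filter only through the control arrays. It was 2.93-fold lower in DTT in replicate 1 and 7.87-fold lower in replicate 2, a mean log2 change of -2.26 ± 1.01 (SD of the 2 replicates). Among the 13648 probe sets tested, its change ranked 45 from the lowest in replicate 1 and 8 from the lowest in replicate 2. Its size rests on low signals. The log2 change was -1.24 on the log2(signal + 16) scale, -0.60 on the log2(signal + 64) scale, -0.96 without DTT 2 and -3.57 without DTT 1.

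BIK1, the cytoplasmic kinase that EFR signals through, had signals of 709.8 and 297.7 in DTT and 667.2 and 512.4 in control. The highest and the lowest of its 4 signals both came from DTT arrays, so the groups overlapped. BIK1 was 1.06-fold higher in DTT in replicate 1 and 1.72-fold lower in replicate 2. Its log2 changes were 0.09 and -0.78, with a mean of -0.35 ± 0.62 (SD of the 2 replicates). The direction of the mean turned without DTT 2, where the log2 change was 0.28, and the size grew to -0.97 without DTT 1. Opposite signs in the replicates were seen in 48.3% of the probe sets tested.

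AT1G51620, the kinase-like gene, had signals of 87.6 and 68.6 in DTT and 228.3 and 160.4 in control. Both DTT arrays lay well below both control arrays. The mean was 78.1 ± 13.4 in DTT and 194 ± 48.0 in control (SD, n = 2 each). The gene was 2.61-fold lower in DTT in replicate 1 and 2.34-fold lower in replicate 2, and its mean log2 change of -1.30 ± 0.11 (SD of the 2 replicates) had the smallest replicate spread of the 5. In the RefSeq gene table (TAIR10.1) AT1G51620 overlaps its neighbour MSR2, which the annotation gave no probe set of its own. The positions of the probes were not used. AT1G51610, its neighbour on the other side, had 58.5 and 40 in DTT and 31.4 and 41.7 in control, so its groups overlapped. On the log2(signal + 64) scale the log2 change of AT1G51620 was -0.85.

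AT1G66090, the TIR-NBS gene, was the only 1 of the 5 that was higher in DTT. Its signals were 463.3 and 454.8 in DTT, against 186.2 and 254.1 in control. Both DTT arrays lay above both control arrays, and they differed from each other far less than the controls did. The mean was 459 ± 6.01 in DTT and 220 ± 48.0 in control (SD, n = 2 each). It was 2.49-fold higher in DTT in replicate 1 and 1.79-fold higher in replicate 2, a mean log2 change of 1.08 ± 0.34 (SD of the 2 replicates). The change ranked 71 from the highest in replicate 1 and 174 from the highest in replicate 2. It stayed between 0.85 and 1.30 under the other scalings and pseudocounts and without any single array. The next loci with a tested probe set, AT1G66070 and AT1G66100, had log2 changes of 0.00 and -0.10, with overlapping groups in both.

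**Figure D1:**
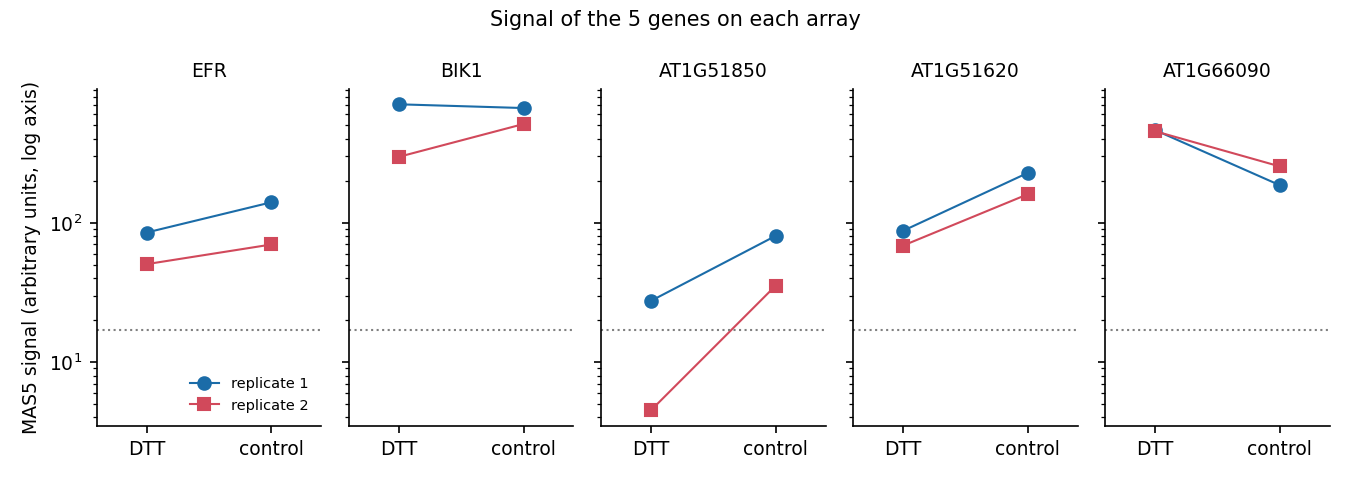
Signal of each gene (y axis, arbitrary units on a log axis) on the DTT and control arrays, with a line joining the arrays of 1 replicate number and the filter level of 16.9 dotted. AT1G66090 is higher on both DTT arrays, AT1G51850 and AT1G51620 are lower on both, and the arrays of EFR and BIK1 overlap between groups.

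The 3 genes whose groups did not overlap were AT1G51850, AT1G51620 and AT1G66090. Over all probe sets tested, 17.8% had groups that did not overlap, 8.01% with DTT above control, as in AT1G66090, and 9.81% with DTT below, as in AT1G51850 and AT1G51620. Without the replicate number, limma called none of the 5 and 0% of the 13648 probe sets at an adjusted p under 0.05, while 95 (0.696%) had an unadjusted p under 0.05. With the replicate number as a block it called the same 3 genes and 0.923% of all probe sets, 0.286% higher and 0.637% lower in DTT. Joined with the block, one median per array or no filter left 0 of the 5 called. AT1G66090 was also lost with quantile normalization, with log2(signal + 16) and with no variance trend. Since the genes were taken from this contrast, nothing is read from these counts.

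**Figure D2:**
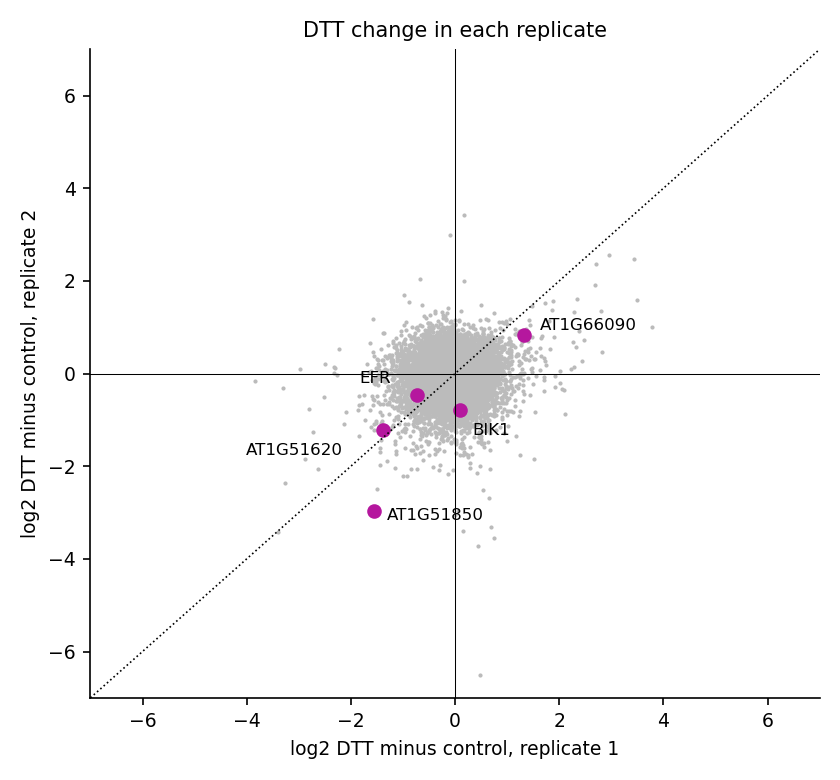
log2 change of DTT over control in replicate 1 (x axis) and replicate 2 (y axis) for all 13648 probe sets tested (grey) and the 5 genes (coloured), with the dotted line marking equal changes. AT1G51850, AT1G51620 and EFR lie below 0 on both axes, AT1G66090 above 0 on both, and BIK1 at 0.09 and -0.78.

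The difference between replicates was not used in picking the genes and was tested with limma, with treatment as a term in the fit. That fit has 1 residual degree of freedom, so its SE and p-values rest mostly on variance that limma pools over probe sets. EFR and BIK1 have SEs of 0.24 and 0.23, while the SDs of their 2 replicate changes in DTT are 0.18 and 0.62. EFR was 1.84-fold higher in replicate 1 than in replicate 2 (log2 0.88, SE 0.24, limma adjusted p = 0.00661). The signals of replicate 1 were higher in both groups, by a log2 difference of 0.75 in DTT and 1.01 in control. BIK1 was 1.76-fold higher in replicate 1 (log2 0.82, SE 0.23, limma adjusted p = 0.00788), by 1.25 on the log2 scale in DTT and 0.38 in control. AT1G51850 was 3.73-fold higher in replicate 1 (log2 1.90, SE 0.35, limma adjusted p = 1.59e-04), by 2.61 in DTT and 1.19 in control. It passed the filter only through replicate 1, and its fold rests on the signal of 4.5 on DTT 2. AT1G51620 had 0.43 (limma adjusted p = 0.167) and AT1G66090 had -0.21 (limma adjusted p = 0.505). The 3 calls among the 5 genes stand beside 32.3% of all probe sets tested that were called between replicates. Over all probe sets tested, 19.4% were called higher and 12.9% lower in replicate 1. With each array scaled to one median, the log2 differences of EFR and BIK1 were 0.60 and 0.54 and no longer passed (limma adjusted p = 0.0888 and 0.182). Without the treatment term none of the 3 passed (limma adjusted p from 0.0541 to 0.133).

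The size of the DTT difference exceeded that of the replicate difference in AT1G51850, AT1G51620 and AT1G66090, and in 24.5% of all probe sets tested. Since the genes were picked with their DTT response known, nothing is read from this comparison. In AT1G51620 the log2 values were -1.30 for DTT against 0.43 for replicate, and in AT1G66090 they were 1.08 against -0.21. In AT1G51850 they were close in size, at -2.26 and 1.90. In EFR and BIK1 the replicate difference was the larger, and both arrays of replicate 1 lay above both arrays of replicate 2.

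**Figure D3:**
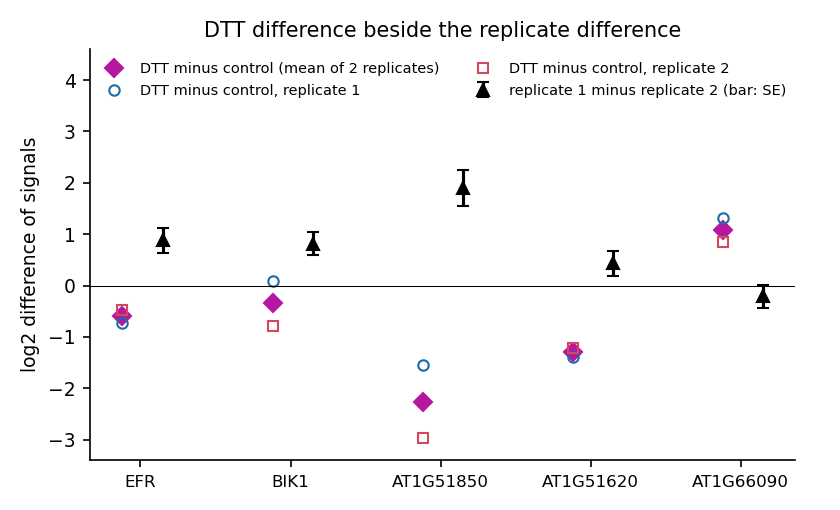
log2 difference of signals (y axis) for each gene: DTT minus control in each replicate (open symbols) and as their mean (diamond), and replicate 1 minus replicate 2 with its SE (triangle with bar). The diamond is farther from 0 than the triangle for AT1G51850, AT1G51620 and AT1G66090 and nearer to 0 for EFR and BIK1. The genes were picked with their DTT response known.

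The genes also differed from each other in profile, measured as the Euclidean distance between log2 signals centred on each gene's mean over the 4 arrays. EFR and BIK1 were the closest pair of the 5, at 0.62, and AT1G51850 and AT1G66090 the farthest apart, at 3.98. Among 7368 other named probe sets tested, AT1G72060 at 0.07 and AT4G31980 at 0.09 lay nearest to EFR. The nearest to BIK1 were AT1G53760 at 0.04 and AT3G52240 at 0.06. BGLU40 at 0.13 and AT1G74010 at 0.24 were nearest to AT1G51620, and AT4G29960 at 0.21 and AT1G07160 at 0.22 to AT1G66090. For AT1G51850, psbC at 0.82 and AT2G47550 at 0.89 came first. Within a distance of 0.25 there were 46 named probe sets for EFR, 101 for BIK1, 2 each for AT1G51620 and AT1G66090 and 0 for AT1G51850. The distances grow with the size of a gene's changes, so a fixed limit leaves fewer neighbours to genes with large ones, and that of AT1G51850 also rests on its low signal on DTT 2. They rest on 4 arrays that share the replicate difference described above.

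AT1G51850 belongs to a stretch of chromosome 1 where leucine-rich repeat receptor kinase genes, IOS1 among them, lie close together. AT1G51620 was listed with it by its locus number, and the loci next to it in the gene table are not on that list. Of 14 loci listed, AT1G51620 and those from AT1G51790 to AT1G51910, 11 could be measured by an unshared probe set, and 7 of these passed the filter. Of the 5 tested loci other than AT1G51850 and AT1G51620, limma called 0 without the replicate block and 0 with it. Without the block, 0 of these 5 had an unadjusted p under 0.05. AT1G51850 and AT1G51620 are left out of these counts, since they were picked with their DTT response known. The 5 had a median log2 change of -0.32 in DTT, beside -0.01 over all probe sets tested, and medians of -0.39 for replicate 1 and -0.25 for replicate 2. That median was -0.052 with DTT 2 left out, -0.047 with control 1 left out and -0.62 with DTT 1 left out.

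AT1G51790 had signals of 194.9 and 62.4 in DTT and 358.2 and 113.9 in control, a log2 change of -0.88 in replicate 1 and -0.87 in replicate 2 (limma adjusted p = 0.0817 with the block). The 2 changes were nearly equal, although replicate 1 was 3.13-fold higher than replicate 2, and its groups overlapped. AT1G51820 had 253.2 and 277 in DTT and 345.7 and 526.2 in control (limma adjusted p = 0.233 with the block). AT1G51805 had 1395 and 1701 in DTT and 1831 and 2018 in control (limma adjusted p = 0.757 with the block). In both of these, each DTT array lay below each control array, as in 9.81% of all probe sets tested. AT1G51890 had 170.3 and 48.3 in DTT and 167.2 and 42.4 in control, and AT1G51910 had 26.8 and 13.9 in DTT and 25.6 and 14.3 in control. In both, the arrays of replicate 1 lay above those of replicate 2, and limma called this for AT1G51890 (adjusted p = 1.28e-06) and not for AT1G51910 (adjusted p = 0.0517). AT1G51910 passed the filter only through replicate 1. Of all probe sets tested, 19.4% were called higher in replicate 1.

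The loci on either side of AT1G51850 were too weak to follow. AT1G51840 had signals of 1.4 and 0.5 in DTT and 1.8 and 1 in control, and AT1G51860 had 3.8 and 0.6 in DTT and 11.5 and 1.2 in control. AT1G51830 and AT1G51810 also stayed below the filter level in their means.

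**Figure D4:**
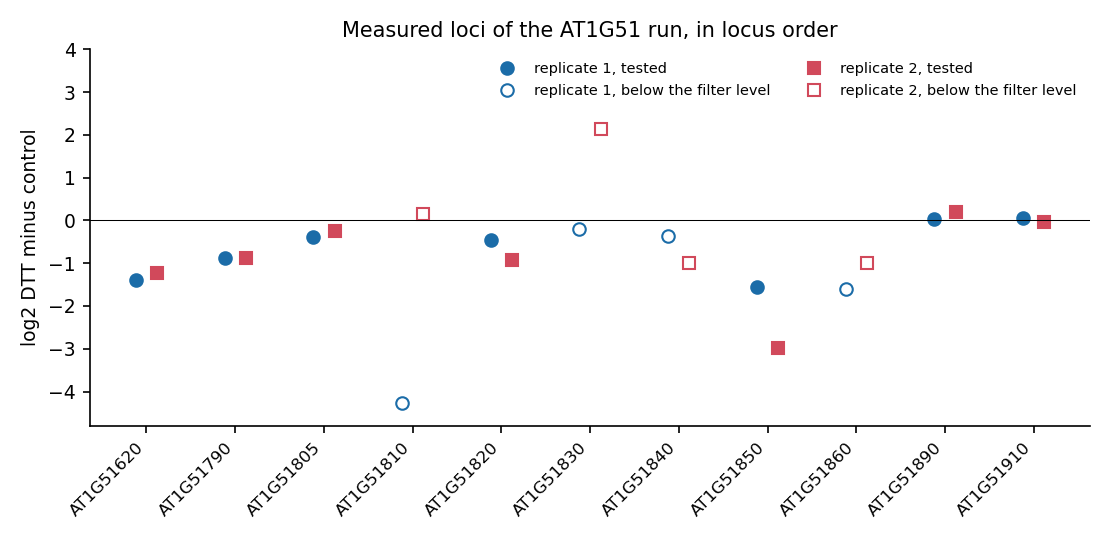
log2 change of DTT over control (y axis) in replicate 1 (circles) and replicate 2 (squares) for the 11 measured loci in locus order; open symbols mark loci below the filter level. AT1G51620, AT1G51790, AT1G51805, AT1G51820 and AT1G51850 are below 0 in both replicates, as were 27% of all probe sets tested, and AT1G51890 and AT1G51910 lie near 0. AT1G51620 and AT1G51850 were picked with their DTT response known.

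Few other genes of surface recognition could be followed. Of 26 listed receptors and co-receptors, the annotation gave only 3 a probe set of their own, EFR, FER and SD1-29. It named no gene for 8730 probe sets and several for 503, so the others may still be on the array. FER, the receptor kinase FERONIA, which binds RALF peptides and is known to scaffold immune receptor complexes, had 294.3 and 167.5 in DTT and 438.3 and 237.4 in control. Its log2 changes were -0.57 and -0.50, close to those of EFR, and its groups overlapped as well (limma adjusted p = 0.477 with the block). SD1-29, an S-domain receptor kinase that responds to bacterial hydroxy fatty acids, had 342.5 and 221.7 in DTT and 475.2 and 274.8 in control (limma adjusted p = 0.747 with the block). FER and SD1-29, like EFR, were called higher in replicate 1 than in replicate 2 (limma adjusted p = 0.00543 and 0.017). So were 19.4% of all probe sets tested. The median log2 change of FER and SD1-29 was -0.46, and it moved to -0.046 when control 1 was left out and to -0.10 when DTT 2 was, or to -0.83 without DTT 1 and -0.88 without control 2.

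A list of 16 receptor kinases and related kinases was then drawn from the names in the annotation, with FER and SD1-29 again among them. Of these, 9 were tested, limma called 0 of them with or without the block, and 0 had an unadjusted p under 0.05 without it. Their median log2 change stood at -0.39 (replicate 1 -0.46, replicate 2 -0.31), and 5 of the 9, FER and SD1-29 included, were lower in DTT in both replicates, against 27% of all probe sets tested. GSO1, another of the 5, had 17.9 and 13 in DTT and 31.9 and 15.6 in control. It passed the filter only through its control arrays, which favours a lower value in DTT. THE1, the wall-sensing relative of FER, had 383.9 and 386.9 in DTT and 565.1 and 602.7 in control (limma adjusted p = 0.314 with the block). Its groups did not overlap and its replicates were nearly equal. APK1A, a cytoplasmic kinase, had log2 changes of -0.46 and -0.49, while PTI1-4, another, had 0.30 and 0.07. The list's median was -0.14 on the log2(signal + 64) scale and ranged from -0.59 to -0.03 without single arrays.

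RALF peptides are small secreted ligands of FER and its relatives. Of 11 listed, 6 were tested, 0 were called by limma with or without the block, and 0 had an unadjusted p under 0.05 without it. RALFL24 had 91.9 and 99.3 in DTT and 127.4 and 121.6 in control, so both DTT arrays lay below both control arrays (limma adjusted p = 0.80 with the block). RALFL33, known as a ligand of FER in immune signalling, had 541.9 and 947.7 in DTT and 817.6 and 986.9 in control. RALFL31 had the smallest p of these, with 25.2 and 38 in DTT and 36.8 and 67.3 in control (limma adjusted p = 0.423 with the block). The median log2 change of the 6 was -0.33. It was -0.57 in the first replicate pair and -0.04 in the other, and it turned to 0.20 without DTT 1.

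Below the receptors, 7 of 20 listed cytoplasmic kinases, oxidases and ubiquitin ligases could be measured, BIK1 among them. Of the 4 tested besides BIK1, limma called 0 with or without the block. Over all 5 tested, 0 had an unadjusted p under 0.05 without it. PUB26, a U-box ubiquitin ligase known to target BIK1 for degradation, had 39.8 and 24.6 in DTT and 20.4 and 15.9 in control. Both DTT arrays lay above both control arrays, with log2 changes of 0.96 and 0.63 (limma adjusted p = 0.447 with the block). PUB25, its close relative, was below the filter level, at 9.9 and 8.1 in DTT and 3.6 and 11 in control. AT3G09830 had 563.2 and 908.7 in DTT and 551.1 and 743.5 in control. The median log2 change of the 4 was 0.17, and it was 0.33 without DTT 1 and 0.0099 without DTT 2. The annotation gave none of the 13 MAP kinase cascade genes listed a probe set of its own. It named no gene for 8730 probe sets, so this does not show that the array lacks them.

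Around AT1G66090, 5 of 35 listed intracellular receptors and partners could be measured. Of the 4 tested, limma called 0 with or without the block, and 0 had an unadjusted p under 0.05 without it. SAG101, a partner of EDS1 in signalling by TIR-type receptors, had 400.5 and 211.5 in DTT and 385.6 and 280 in control. AT3G48080 had 42.5 and 30.1 in DTT and 40.3 and 25.5 in control. CSA1, itself a TIR-type receptor, had 44.9 and 43.7 in DTT and 58 and 40.7 in control, and SGT1A, a co-chaperone of such receptors, lay between 332.8 and 380.4 on all arrays. None of these 4 had groups that stood apart. Their median log2 change was -0.07, and it turned to 0.017 with one median per array and to 0.17 without DTT 2 or 0.11 without control 1. Of the 24 response genes listed, 2 were measured, limma called 0 with or without the block, and 0 had an unadjusted p under 0.05 without it. WRKY22, a transcription factor of pattern-triggered immunity, had log2 changes of -0.18 and 0.03, and WRKY53, a defence and senescence regulator, had 0.75 and 0.76 (limma adjusted p = 0.167 with the block).

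Of 18 listed genes of quality control in the endoplasmic reticulum, 3 could be measured. With the block, limma called all 3 higher in DTT, against 0.286% of all probe sets tested, and without the block it called 0. Only ATERDJ3B among them is named above as a gene that EFR depends on, and a need of EFR for the others was not tested. Joined with the block, 0 of the 3 were called with one median per array or with no filter, and 1 with no variance trend. CRT1b also lost its call with quantile normalization and with log2(signal + 16) (limma adjusted p = 0.101 and 0.08). Without the block 1 had an unadjusted p under 0.05. The list was drawn up with earlier results of these data known, so these counts are not an independent test. ATERDJ3B had 1651 and 686.5 in DTT and 448.7 and 232.1 in control, CRT1b had 525.4 and 201.8 in DTT and 198.9 and 124.7 in control, and AT5G07340 had 123.7 and 53.1 in DTT and 46.3 and 23.7 in control. Within each replicate these 3 were higher in DTT while EFR was lower. Their median log2 change was 1.29, and it was 0.68 without DTT 1 and 0.81 without control 2. The genes AT2G28390 and AT4G34270, often taken as stable, had log2 changes of -0.23 and 0.06. AT5G06700, listed as a trichome marker, had 657.5 and 847.5 in DTT and 953.4 and 1020 in control, and FMA, the guard cell regulator FAMA, had 26 and 31.6 in DTT and 31.4 and 23.8 in control. The part of these cell types in the results was not tested.

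**Figure D5:**
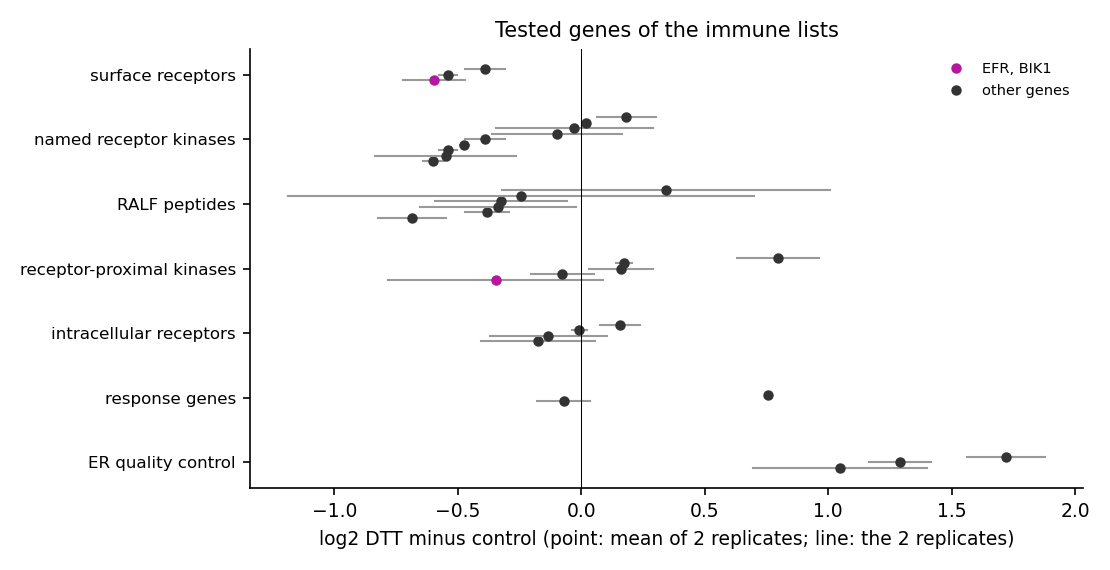
log2 change of DTT over control (x axis) for the tested genes of 7 lists (y axis), with a point at the mean of both replicates and a line from one replicate to the other; EFR and BIK1 are coloured. The 3 quality-control genes lie above 1 in their means, while the surface receptors and THE1, APK1A and GSO1 lie below 0 in both replicates. GSO1 passed the filter only through its control arrays.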

How the data were processed

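Total RNA (10 µg) from leaf discs was biotin-labelled and hybridized to ATH1 arrays, 4 in all. The authors deposited 1 linear intensity (signal) per probe set and array, and the submitters' processing notes name MAS5. The sources used here name no software version or options. The deposited values had a mean of 100 on each array after trimming 2% at each end, so a change of total mRNA cannot be seen, and low signals are the noisiest.

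Groups came from the titles. Signals of 0 were set to 0.1 and log2 was taken. Of 22746 non-control probe sets, those below the 40th percentile of mean log2 signal were left out. DTT against control was tested in limma 3.58.1 (R 4.3.3) with lmFit and eBayes with a variance trend, without a block and, as an alternative, with replicate number as a block, and p-values were adjusted by Benjamini-Hochberg over all 13648 tested. The replicate difference was tested with treatment as a term. The fits had 2 residual degrees of freedom without the block and 1 with it, so the p-values lean on variance pooled over probe sets. They do not measure the spread of a single gene, and they speak only of these samples. The fits were tested on simulated data. Plots were drawn with Python 3.11.15 and matplotlib 3.10.9.

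Names came from the platform annotation: 13513 probe sets had 1 gene, 503 several and 8730 none. Of the first kind 13436 matched RefSeq's gene table. The annotation gave 37 of 182 listed loci a probe set of their own, and the others were counted as not measured. Whether those are read by probe sets without a named gene was not checked. Families to be taken from gene descriptions were not formed, because the tables held none. Sequences were not used here.

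The genes and lists were chosen with earlier results of these data known, and the lists of named receptor kinases and RALF peptides after the names in the annotation had been read. Text names followed a rule: the 5 genes, per list up to 4 called with the block or else the 2 of smallest p, every measured AT1G51 locus, the 2 nearest profiles per gene and the reference genes. Others were named after their values were seen. Other settings tried were quantile normalization between arrays, one median per array over the non-control probe sets, pseudocounts of 16 and 64, no filter or the 60th percentile, no trend, robust eBayes, _at probe sets only, the block alone or joined with these, and leaving out each array.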

Additional observations from a re-analysis of the deposited data

How the results depend on the processing

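Without a block the count of probe sets called by limma for DTT against control was 0 under each scaling, pseudocount, filter and variance model tried, and 0 to 3 without single arrays (3 without DTT 1, all lower). With the replicate block it was 126, and joined with the block it was 51 with quantile normalization, 3 with one median per array, 58 with log2(signal + 16), 135 with log2(signal + 64), 3 with no filter, 176 with the 60th percentile and 35 with no variance trend. Of the 5 genes it called AT1G51850, AT1G51620 and AT1G66090 with the block alone or with log2(signal + 64), and 0 with one median per array or no filter. The cause of these differences was not tested. No label states a pairing of arrays by number. The difference of replicate 1 minus replicate 2 in DTT correlated at 0.746 with that in control over the probe sets tested.

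Between replicates, 4412 probe sets were called, 60% of them higher in replicate 1. With no filter it was 2374. The share higher in replicate 1 was 47.3% with quantile normalization and 26.5% with one median per array. These scalings moved the median log2 replicate difference of all probe sets to -0.01 and -0.15, against 0.13. Of the called genes, BIK1 also lost its call with no filter (limma adjusted p = 0.082).

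Among the 5 genes, 1 DTT change turned sign, that of BIK1, which ranged from -0.97 to 0.28 without single arrays. AT1G51620 ranged from -1.56 to -1.05. With the 60th percentile AT1G51850 was not tested. Among the lists, the intracellular receptors ranged from -0.28 to 0.17 without single arrays and stood at 0.017 with one median per array, the response genes ranged from -0.035 to 0.72, and the RALF peptides from -0.86 to 0.20. With an array left out the replicates are no longer balanced, and these values mix the replicate difference with that of DTT. Signals near or below 16.9, such as AT1G51850 on DTT 2, limit the precision of a fold.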
